A study of Mus musculus with 4 samples.

Results

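Solitary sites of Ldb1, Tal1 and Gata1 are stretches of the mouse genome where all 3 proteins were called together with no other such stretch nearby. They were chosen by the deposited site calls: sites of the 3 lists on chromosomes 1 to 19 whose neighbouring centres lay at most 200 bp apart were chained into places, and a place was kept when it held a site of each antibody and no other place of all 3 lay within 20 kb. There were 1442 such places, which is 64.1% (95% interval 62.1 to 66.1) of the 2249 places of all 3 and 15.1% of all 9522 autosomal places. The other 807 places of all 3 are called clustered below. The calls and the tags come from the same libraries, so levels and positions at these places are described without a test.

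Ldb1 is an adaptor protein with no DNA-binding domain of its own, held on chromatin by partners. In red blood cell precursors it is known to join, through the bridging protein Lmo2, with the zinc-finger factor Gata1, which binds GATA motifs, and the basic helix-loop-helix factor Tal1 (also Scl), which binds E-boxes with an E-protein partner. Such complexes are known for enhancers and promoters of erythroid genes.

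The study asked what Ldb1 complexes do in switching on erythroid genes. Chromatin immunoprecipitation with sequencing was done on total mouse bone marrow, formaldehyde-fixed when fresh and sheared by sonication, with 1 library each for Ldb1 (Santa Cruz sc-11198, whose label spells the target Lbd1), Tal1 (Santa Cruz sc-12984), Gata1 (Abcam ab11852) and control IgG. The labels give no strain, age or sorting step. Total marrow mixes blood lineages, so calls that coincide in separate libraries do not show that the proteins sat on the same DNA molecule or in the same cell, and no marker in these data checks the cell makeup.

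The Ldb1 library held 6368803 tags, the Tal1 library 5767555, the Gata1 library 7873298 and the IgG library 7437674, of which 72.0%, 63.2%, 89.0% and 77.3% in the same order had a position and strand of their own. IgG tags were 36 bases long and the others 25. Levels are tags centred within 250 bp of a place per 1000000 tags of the library (RPM). They depend on the antibody and the depth, and are not occupancy. With 1 library per antibody there is no replicate error: intervals cover counting error, or for medians the spread between places. Tags carry no molecular identifiers, so PCR copies cannot be told from separate molecules. The intervals of tag ratios take every tag as a separate count, so they are too narrow where tags are copies. Positions are on mm8, and with no genome of that build used here, places are given by coordinates, without genes or sequences.

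The solitary places were spread along the genome, mostly as simple triplets of calls. Of the 1442, 1352 (93.8%) held exactly 1 site of each antibody. More than 1 site was found for Tal1 at 78 places, for Ldb1 at 22 and for Gata1 at 10. They took in 28.8% of Ldb1 sites, 28.6% of Tal1 sites and 25.8% of Gata1 sites on the autosomes. A solitary place is thus a small part of each list, and most sites of each protein lay elsewhere.

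The nearest other place of all 3 lay at a median of 145 kb (quartiles 52.5 and 444 kb, range 20.1 to 12424 kb). The share of places of all 3 that were solitary was lowest on chromosome 12, at 54.3% (63 of 116, interval 44.8 to 63.6), and highest on chromosome 19, at 80.3% (61 of 76, interval 69.5 to 88.5). These intervals do not overlap, but the pair is the lowest and highest of 19 chromosomes. Chromosomes 4 and 11 held the most solitary places, 119 and 115, and chromosome 14 the fewest, 36.

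The limit of 20 kb cut through an even run of distances. There were 19 places of all 3 whose nearest other one lay 20 to 21 kb away, just inside the rule, and 22 at 19 to 20 kb, just outside. The members nearest the limit were a pair on chromosome 6, from 116335911 to 116336071 and from 116315791 to 116316091, whose centres were 20.145 kb apart, and one on chromosome 5 from 121476611 to 121476991, 20.2 kb from its nearest. At the first of the pair Ldb1, Tal1, Gata1 and IgG had 5.65, 9.88, 2.03 and 0.134 RPM, and at the second 19.2, 18.03, 8.64 and 0.134 RPM. The chromosome 5 place was among the strongest of all members, with 45.1 Ldb1 RPM, 64.2 Tal1 RPM, 19.2 Gata1 RPM and 0.269 IgG RPM. Just outside lay a place on chromosome 7 from 24105791 to 24105951, 19.86 kb from its nearest, and a pair on chromosome 9, from 70944931 to 70944991 and from 70964751 to 70964831, 19.83 kb apart. The chromosome 7 place had 2.83 Ldb1 RPM, 4.85 Tal1 RPM, 3.81 Gata1 RPM and 0.134 IgG RPM. The stronger of the chromosome 9 pair had 33.6 Ldb1 RPM, 47.7 Tal1 RPM, 14.7 Gata1 RPM and no IgG tag. Weak and strong places thus stood on both sides of the limit.

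At the solitary places all 3 antibodies stood far above IgG, in the order Tal1, Ldb1, Gata1. Tal1 had a median of 9.02 RPM (interval 8.67 to 9.54, quartiles 5.55 and 17.2, range 1.73 to 137). Ldb1 had a median of 7.77 RPM (7.38 to 8.16, quartiles 4.87 and 12.9, range 1.73 to 279). Gata1 had a median of 4.45 RPM (4.32 to 4.57, quartiles 3.05 and 6.57, range 1.397 to 32.5). IgG had a median of 0.269 RPM, which is 2 tags, and no tag at all at 268 places (18.6%), where a count of 0 allows up to 0.403 RPM. Places differed widely within each antibody: the upper quartile was 3.09 times the lower for Tal1, 2.65 times for Ldb1 and 2.16 times for Gata1.

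Summed over the places, Tal1 was 42.2 times IgG (40.8 to 43.7), Ldb1 32.8 times (31.7 to 33.97) and Gata1 16.9 times (16.3 to 17.5). The calls selected places high in these tags, so the folds describe the selection. Against each library's own flanks, 2 to 5 kb to both sides, the places were 41.0-fold higher for Tal1, 31.2-fold for Ldb1 and 15.2-fold for Gata1. IgG was 1.38-fold higher than its own flanks (1.33 to 1.43), so the control also had a small local excess, whose part in the calls was not tested.

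The enrichment was narrow. Between 250 and 500 bp from the centre Tal1 was 4.48 times IgG, Ldb1 3.50 times and Gata1 3.18 times. Between 1 and 2 kb the folds were 1.64, 1.74 and 1.83 in the same order, and at 10 to 20 kb 1.28, 1.26 and 1.31. Beyond 500 bp the 3 antibodies lay close together, and Gata1, the lowest at the centre, had the highest fold at every distance read.

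**Figure D1:**
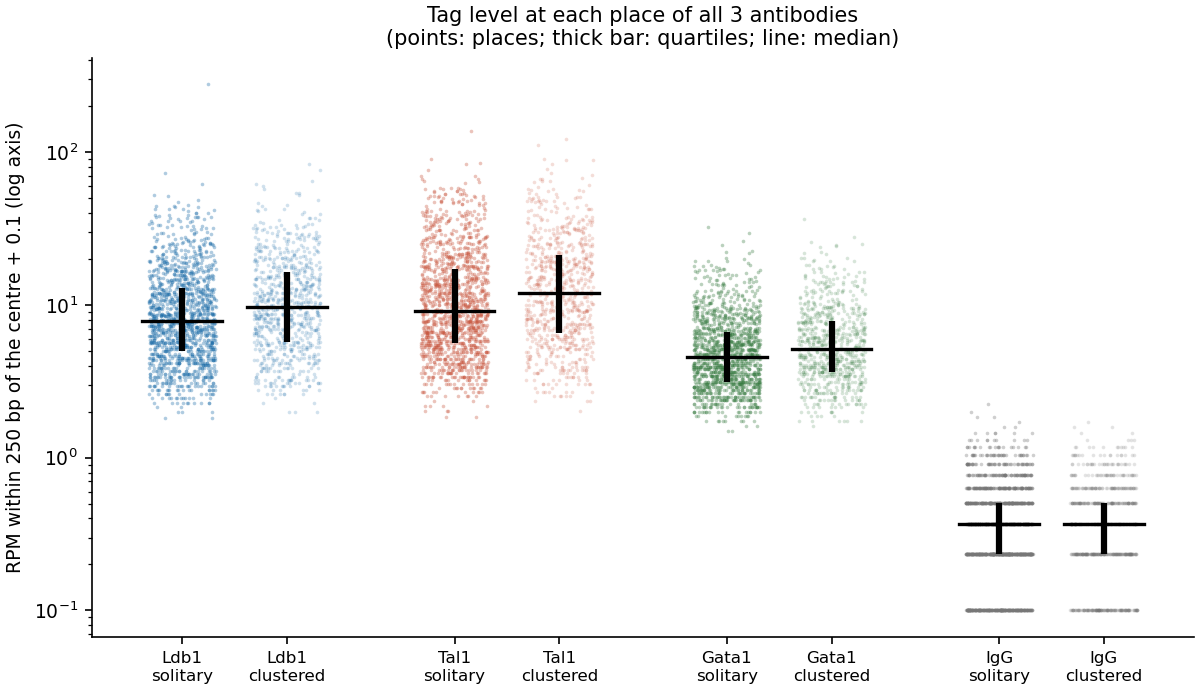
Tags within 250 bp of the centre at every place of all 3 antibodies, in RPM plus 0.1 on a log axis, for solitary and clustered places in each of the 4 libraries. Points are places, thick bars quartiles and lines medians; the bottom row of IgG points is places with no tag, and the single Ldb1 point near 279 RPM is the stack of repeated tags described in the text.

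Tags lay around the centres in the way fragments around a point source do. Counting each position and strand once and averaging over 5 bins of 10 bp, plus-strand tags peaked 55 bp below the centre and minus-strand tags 55 bp above it for each of Ldb1, Tal1 and Gata1, a separation of 110 bp. The peaks reached 31.0 and 30.4 RPM per kb for Tal1 on the plus and minus strands, 22.9 and 23.2 for Ldb1, and 12.5 on both for Gata1. The IgG library reached at most 0.396 RPM per kb, at a position 295 bp from the centre, with no paired peak at 55 bp. The site caller looks for exactly this pair of strand peaks, so the shape follows from the calls.

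**Figure D2:**
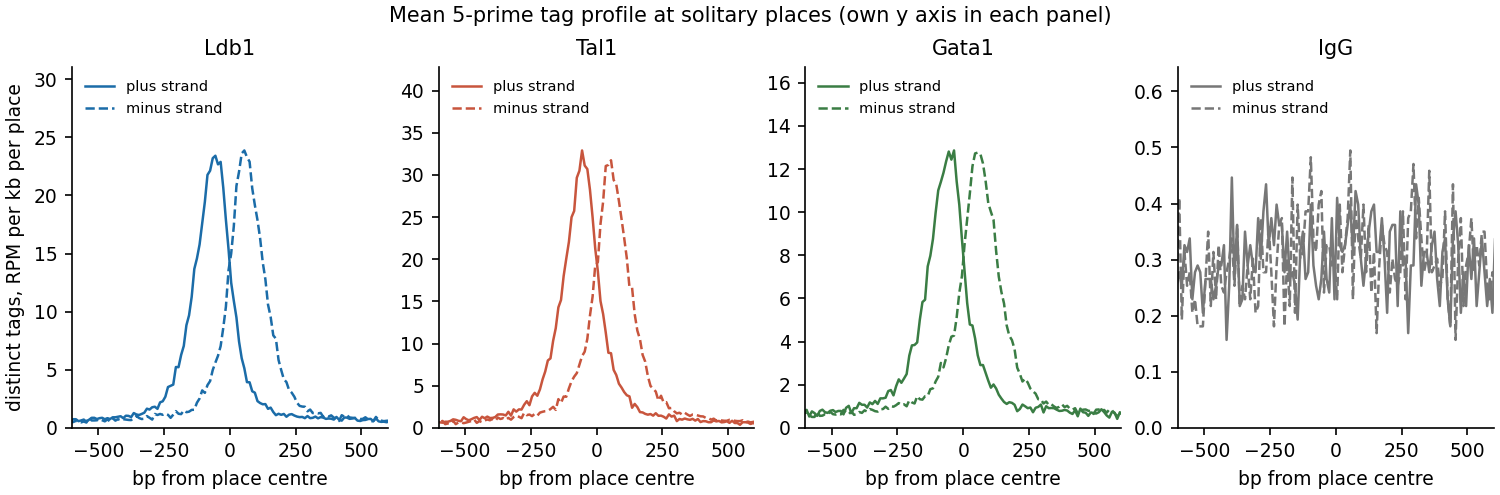
Mean profile of distinct 5-prime tag ends around the solitary places, in RPM per kb per place, against bp from the place centre, with plus-strand tags as solid and minus-strand tags as dashed lines. Each panel has its own vertical axis; Ldb1, Tal1 and Gata1 show strand peaks 110 bp apart, while IgG stays under 0.5 RPM per kb.

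Repeated tags made up much of the signal for Tal1 and Ldb1. Distinct tags were 53.1% of Tal1 tags at the places, 58.1% of Ldb1, 82.6% of Gata1 and 77.1% of IgG. Counted once per position, Tal1 was 35.6 times IgG, Ldb1 26.6 times and Gata1 15.7 times, the same order with smaller folds.

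A single place held an extreme stack and was picked out after its values were seen. On chromosome 2 from 91749051 to 91749191, Ldb1 had 279 RPM, the highest of any member, from 1774 tags of which only 14 (0.789%) were distinct. At the next lowest member 38.7% of Ldb1 tags were distinct. Tal1 had 3.47 RPM there, Gata1 4.32 and IgG 0.134, and the caller, which kept 1 tag per position, credited the Ldb1 site with 10 tags. The Ldb1 level at this place is therefore that of a few repeated positions, and without it the Ldb1 fold over IgG over all members is 32.2. The lowest share of distinct Gata1 tags, 35.3%, was at chromosome 11 from 46519331 to 46519371, against 62.9% at the next member.

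The 3 antibodies were strong or weak at the same places more often than not. Across the 1442 places, log2 levels (RPM plus 0.1) had Pearson and Spearman correlations of 0.785 and 0.764 between Ldb1 and Tal1, 0.751 and 0.725 between Ldb1 and Gata1, and 0.726 and 0.685 between Tal1 and Gata1. Correlations with IgG were 0.0833 for Ldb1, 0.103 for Tal1 and 0.216 for Gata1 (Pearson). The places share the selection and local sequence properties, and the values carry no p.

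Ranked by tag number within its own list, the median solitary site stood at the percentile 74.0 for Ldb1, 74.5 for Tal1 and 73.8 for Gata1. All 3 sites lay in the upper 50% of their lists at 928 places (64.4%), and all 3 in the top 10% at 176 (12.2%, interval 10.6 to 14.0). At 128 places (8.88%) at least 1 site had only the smallest tag number its list allows, and at 0 of the 1442 were all 3 at that minimum (95% interval up to 0.255%). Gata1 was the lowest-ranked of the 3 at 38.1% of places (interval 35.6 to 40.6), Tal1 at 32.04% (29.6 to 34.5) and Ldb1 at 29.9% (27.5 to 32.3). The highest-ranked was Tal1 at 37.1%, Gata1 at 33.5% and Ldb1 at 29.4%. At clustered places Gata1 was the lowest-ranked at a similar share, 39.2% (35.8 to 42.6). Ranks of the 3 differed by over 50 percentile points at 121 places (8.39%), so lopsided places were a minority.

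Imbalance between antibodies at solitary places ran mostly one way, with Gata1 as the lower of a pair. Tal1 was at least 2 times Gata1 at 803 solitary places (55.7%), against 36.3% of all autosomal places. Ldb1 was at least 2 times Gata1 at 588 (40.8%), against 30.5% of all. Tal1 was at least 2 times Ldb1 at 201 (13.9%), against 24.8% of all. The reverse calls were rare at solitary places. Ldb1 was at least 2 times Tal1 at 44 (3.05%, against 17.1% of all), Gata1 at least 2 times Ldb1 at 8 (0.555%, against 21.5%) and Gata1 at least 2 times Tal1 at 8 (0.555%, against 17.7%). The rule used the calls behind these levels, so nothing is read from the distance to the background. Median RPM ratios were 2.15 for Tal1 over Gata1, 1.80 for Ldb1 over Gata1 and 1.24 for Tal1 over Ldb1, and differences in antibody and in binding cannot be told apart in them. Counted once per position, Ldb1 reached 2 times Gata1 at 29.9% of places.

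Compared with clustered places, solitary places were somewhat weaker for every antibody and level for IgG. The median Ldb1 level was 7.77 RPM (7.38 to 8.16) at solitary and 9.58 RPM (8.95 to 10.2) at clustered places. For Tal1 the medians were 9.02 RPM (8.67 to 9.54) at solitary and 11.8 RPM (10.6 to 13.0) at clustered places. For Gata1 they were 4.45 RPM (4.32 to 4.57) at solitary and 5.08 RPM (4.83 to 5.46) at clustered places. The intervals of the medians did not overlap for any of the 3, while the median IgG level was 0.269 RPM in both sets.

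Mean levels at solitary places were 0.841 times those at clustered places for Ldb1 (counting interval 0.833 to 0.850), 0.821 times for Tal1 (0.813 to 0.828) and 0.854 times for Gata1 (0.843 to 0.864). For IgG the ratio was 1.02 (0.966 to 1.08). Counted once per position the ratios were 0.837, 0.834 and 0.864, and 1.04 for IgG. The plot of levels shows how far the sets overlapped: 38.2% of solitary places exceeded the clustered median for Ldb1, 38.2% for Tal1 and 40.01% for Gata1. Both sets were chosen on calls of all 3, but the isolation that separates them used no level directly.

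The same gap appeared in the ranks. Medians for Ldb1, Tal1 and Gata1 were at percentiles 74.0, 74.5 and 73.8 at solitary places and 78.9, 80.4 and 78.8 at clustered places. All 3 sites were in the top 10% of their lists at 12.2% of solitary places and at 17.5% (141 of 807, interval 14.9 to 20.3) of clustered places. Balance differed little. Tal1 was at least 2 times Ldb1 at 13.9% of solitary and 13.4% of clustered places. Tal1 was at least 2 times Gata1 at 55.7% (53.1 to 58.3) of solitary and 60.8% (57.4 to 64.2) of clustered places, with overlapping intervals.

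Among solitary places themselves, distance to the next place of all 3 went with little change in level. Ldb1 medians were 8.32 RPM at 329 places within 50 kb of another, 8.16 at 275 places 50 to 100 kb away, 7.54 at 517 places 100 to 500 kb away and 7.54 at 321 places farther off. Tal1 medians at the same distances were 9.02, 10.1, 9.19 and 7.98 RPM, and Gata1 medians 4.57, 4.57, 4.45 and 4.32 RPM. The intervals of the nearest and the farthest set overlapped for all 3 antibodies.

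The centres of the 3 sites lay close together with no fixed order. By the caller's centres, which sit on a grid of 10 bp, the median distance was 30 bp for each pair (Ldb1 to Tal1, Ldb1 to Gata1 and Tal1 to Gata1), and the 3 centres spanned a median of 50 bp. All 3 fell within 20 bp at 22.1% of places, within 50 bp at 50.9%, within 100 bp at 81.8% and within 200 bp at 99.0%. The chaining distance of 200 bp bounds these values. At 480 places (33.3%) at least a pair of centres was equal, and at 42 (2.91%) all 3 were.

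At the other 962 places the Ldb1 centre was in the middle at 36.1% (33.0 to 39.2), the Tal1 centre at 36.2% (33.1 to 39.3) and the Gata1 centre at 27.8% (24.9 to 30.7). The lower share for Gata1 did not hold in another reading of position that does without the caller's grid. There the position of each antibody was the mean of the median plus-strand and the median minus-strand tag end, at the 913 places with at least 10 tags per strand and antibody. Of 903 places with no equal midpoints, Ldb1 was in the middle at 35.4% (32.3 to 38.7), Tal1 at 30.8% (27.8 to 33.9) and Gata1 at 33.8% (30.7 to 37.0). Both readings named the same middle antibody at 219 of 585 places (37.4%, interval 33.5 to 41.5) where neither had a tie. That is near the share that unrelated readings of 3 antibodies would give. The sign of the offset was the same in both readings at 66.6% of places (63.2 to 69.9) for Ldb1 and Tal1, 63.7% (60.2 to 67.1) for Ldb1 and Gata1, and 68.3% (64.9 to 71.5) for Tal1 and Gata1. The readings thus shared the side of a pair more often than not, but named different middle antibodies at most places.

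By tag midpoints the 3 positions lay closer together than by the caller's centres. All 3 midpoints were read in the same window of 250 bp around the place centre, which can draw them together. The part of this window in the shorter distances was not tested. In a window of 150 bp they were shorter again, at 12 bp (Ldb1 to Tal1), 11.4 bp (Ldb1 to Gata1) and 12.8 bp (Tal1 to Gata1). With the window of 250 bp the median distance was 14.0 bp for Ldb1 to Tal1 (13.0 to 15.5), 12.8 bp for Ldb1 to Gata1 (11.5 to 14.0) and 15.8 bp for Tal1 to Gata1 (14.5 to 17). The 3 midpoints spanned a median of 24 bp, and all 3 lay within 20 bp at 40.5% of places and within 50 bp at 87.8%. At the same 913 places the caller's centres spanned a median of 60 bp, so the reading and not the set of places made the difference.

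Mean shifts to one side along the chromosome were small for each pair. The mean signed distance by caller centres was -1.22 ± 1.398 bp for Ldb1 minus Tal1, -1.87 ± 1.65 bp for Ldb1 minus Gata1 and -0.652 ± 1.65 bp for Tal1 minus Gata1 (standard error over 1442 places). Genome strand gives no orientation to a place, so a shift tied to motif direction could not be read. The median span by midpoints was 24 bp at solitary and 24 bp at clustered places (602 with enough tags), and by caller centres 50 bp (50 to 60) at solitary and 60 bp (60 to 70) at clustered places.

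**Figure D3:**
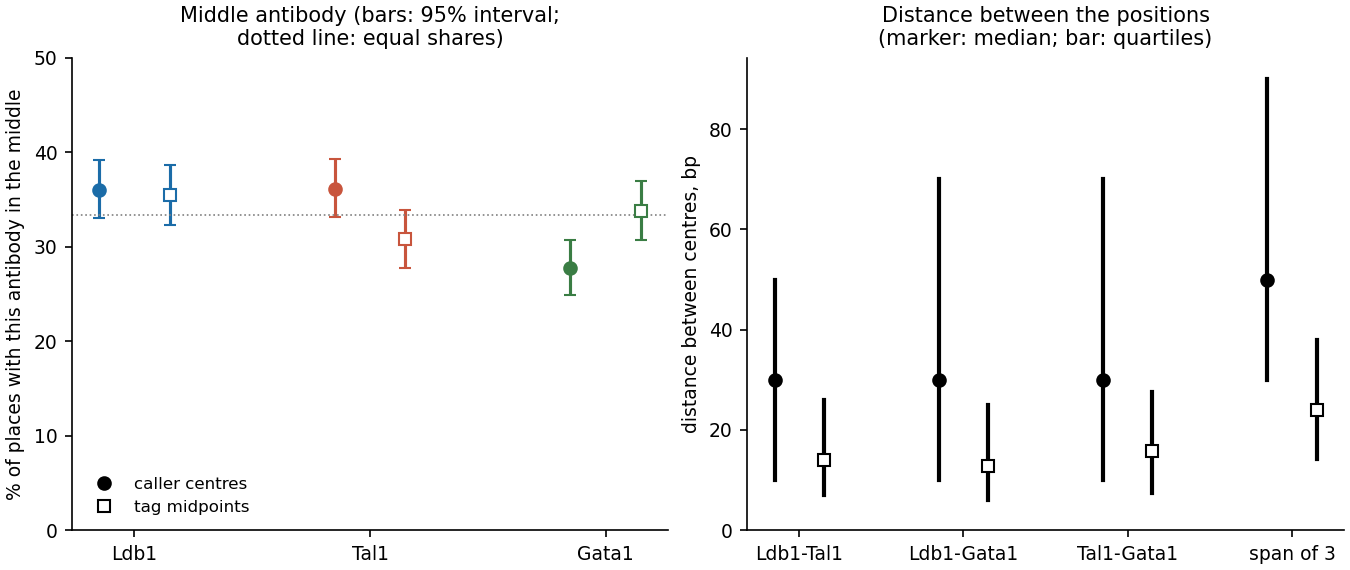
Left, share of solitary places with each antibody in the middle, in percent with 95% intervals, by the caller's centres (filled circles, 962 places) and by tag midpoints (open squares, 903 places), with a dotted line at equal shares. Right, distance between the positions of each pair and the span of all 3, in bp, as median and quartiles; the lower share of Gata1 appears by caller centres and not by midpoints, which lie closer together.

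By tag midpoints, though not by the caller's centres, weaker places had wider spans. Solitary places were ranked by mean percentile of the 3 tag numbers and cut into quartiles. The median span of the 3 midpoints was 49.5 bp in the weakest quartile (37 places with enough tags), 31.3 bp in the lower middle (187), 27.6 bp in the upper middle (328) and 18 bp in the strongest (361). By the caller's centres, over all 1442 places, the median spans from the weakest to the strongest quartile were 60, 40, 60 and 50 bp, with no such trend. Weaker places have fewer tags behind each midpoint, and the part of this in the wider spans was not tested.

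Neighbouring places called for only 1 or 2 of the antibodies were common around solitary places. Of the 1442, 750 (52.0%, interval 49.4 to 54.6) had at least 1 partly called place within 20 kb. Over all 9522 autosomal places that share was 52.0%, so having such a neighbour did not set solitary places apart. At clustered places it was 71.5% (577 of 807, interval 68.2 to 74.6). The other 692 solitary places (48.0%) had no place of any kind within 20 kb.

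Neighbour numbers were low: 411 places had exactly 1, 204 had 2, 85 had 3, 28 had 4 and 22 had 5 or more, with 9 the highest. The mean was 0.913 per solitary place and 1.57 per clustered place. The 1316 pairs of solitary place and neighbour involved 1287 distinct places, 17.7% of the 7273 partly called places on the autosomes. Neighbours lay at the higher coordinate in 49.9% of pairs. Genome strand gives no orientation to a place, so this share cannot show whether a side was favoured.

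By the proteins called, Gata1 alone was the most frequent neighbour, with 404 of 1316 pairs (30.7%, interval 28.2 to 33.3), followed by Tal1 alone with 344 (26.1%, 23.8 to 28.6) and Ldb1 alone with 190 (14.4%, 12.6 to 16.5). Pairs of proteins were called at 169 neighbours for Ldb1 with Tal1 (12.8%), 109 for Ldb1 with Gata1 (8.28%) and 100 for Tal1 with Gata1 (7.60%). Among all partly called places, Gata1 alone made up 33.1%, Tal1 alone 22.04% (21.09 to 23.01) and Ldb1 alone 20.4% (19.5 to 21.4). Ldb1 alone was thus a smaller share, and Tal1 alone a larger one, beside solitary places than over the genome. The comparison with all partly called places holds the neighbours in both sets. Beside clustered places the Ldb1 share was also smaller, at 16.8% (213 of 1270, interval 14.8 to 18.9), and its interval overlapped that of solitary places. The share of Tal1 alone was also larger there, at 29.9% (380 of 1270, interval 27.4 to 32.5), again with an interval that overlapped that of solitary places.

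Partly called places were densest right beside the solitary place. Per place and kb there were 0.198 at 200 to 300 bp, 0.179 at 300 to 500 bp, 0.0673 at 500 bp to 1 kb and 0.0506 at 1 to 2 kb. Farther out there were 0.0264 at 2 to 5 kb, 0.0147 at 10 to 20 kb and 0.0105 at 50 to 100 kb. The density thus fell at every step out to the farthest distance read. Around clustered places it was higher at each of these distances, for example 0.359 at 200 to 300 bp, 0.0279 at 10 to 20 kb and 0.0130 at 50 to 100 kb.

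Composition changed with distance. At 200 to 300 bp, 35 of 57 neighbours (61.4%, interval 47.6 to 74.0) had a Tal1 site and 10 (17.5%, 8.75 to 29.9) a Gata1 site. At 2 to 5 kb, 98 of 228 (43.0%, 36.5 to 49.7) had a Tal1 site and 124 (54.4%, 47.7 to 61.0) a Gata1 site. The Gata1 share was thus lower among the nearest neighbours than a few kb off, with intervals that do not overlap, while the intervals of the Tal1 share did. Neighbours at 200 to 300 bp lie within the tag spread of the place itself, the caller's fragment length was 188 bp for Tal1 and 235 bp for Gata1, and the smallest tag number it required was 8 for Tal1 and 11 for Gata1. The part of these settings in the composition was not tested. Around clustered places a Tal1 site was found at 72.4% (42 of 58, interval 59.1 to 83.3) and a Gata1 site at 17.2% (10 of 58, 8.59 to 29.4) of neighbours at 200 to 300 bp. At 2 to 5 kb the shares there were 51.1% for Tal1 (44.4 to 57.8) and 41.9% for Gata1 (35.4 to 48.6). The nearest clustered neighbours thus also had the lower Gata1 share. At 2 to 5 kb Tal1 was the more frequent around clustered places and Gata1 around solitary ones, but within each set the intervals of Tal1 and Gata1 overlapped. Over all neighbours within 20 kb, Tal1 and Gata1 sites were equally frequent around solitary places, each at 613 of 1316 (46.6%, interval 43.9 to 49.3). Among all partly called places, which include these neighbours, 39.98% had a Tal1 site (38.9 to 41.1) and 46.1% a Gata1 site (44.9 to 47.2). The Tal1 share was thus higher beside solitary places than among all partly called places, while the Gata1 share was similar. Around clustered places the shares were 51.2% for Tal1 (48.4 to 54.0) and 40.6% for Gata1 (37.8 to 43.3).

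**Figure D4:**
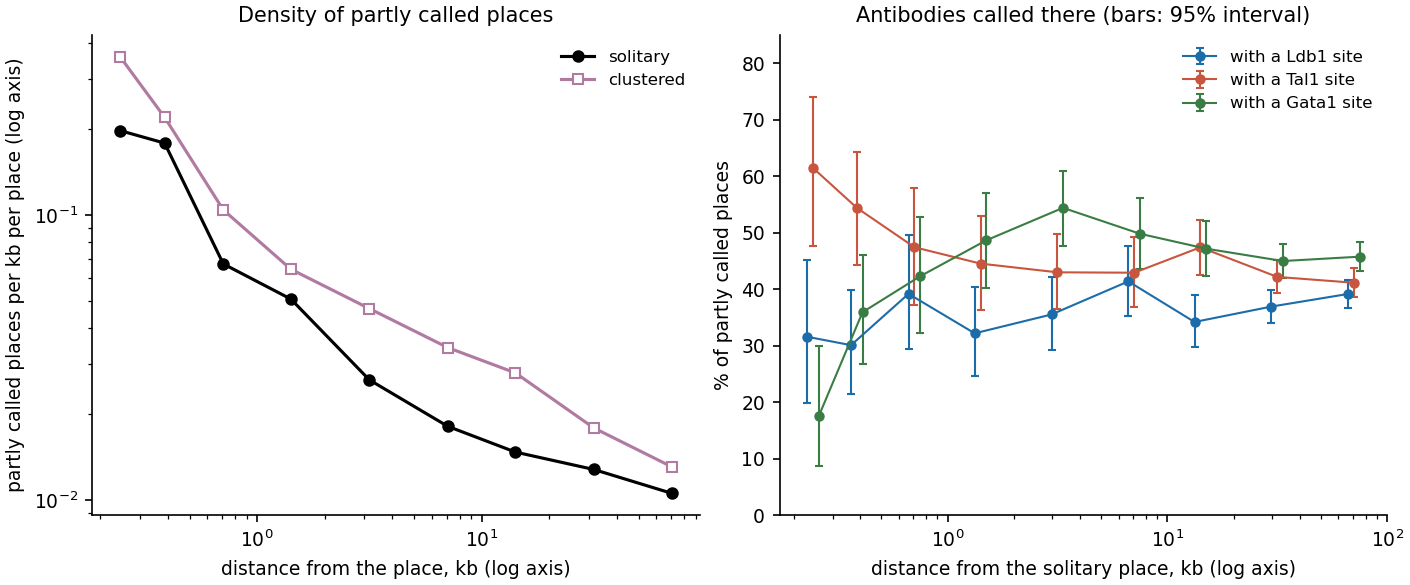
Left, partly called places per kb per place against distance in kb, both on log axes, around solitary (filled circles) and clustered places (open squares). Right, percent of the neighbours of solitary places with a site of each antibody, with 95% intervals, against distance on a log axis; the Gata1 share is lowest, at 17.5%, and the Tal1 share highest, at 61.4%, in the nearest bin.

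An antibody without a call at a neighbour still had tags there. At neighbours over 1 kb away, uncalled Ldb1 was 3.49 times IgG (3.33 to 3.67, 661 places), uncalled Tal1 4.59 times (4.33 to 4.87, 569 places) and uncalled Gata1 4.18 times (3.96 to 4.41, 520 places). The folds of called antibodies at such neighbours were 12.5 for Ldb1, 10.4 for Tal1 and 8.10 for Gata1. Partly called places with no place of all 3 within 20 kb had lower folds for the uncalled antibody, with Ldb1 at 3.15 (3.08 to 3.22), Tal1 at 3.76 (3.68 to 3.85) and Gata1 at 3.19 (3.12 to 3.26). Part of the gap lay in IgG, which was lower at neighbours for each antibody. For Tal1, the mean was 1.61 RPM at neighbours and 1.54 at those places, with IgG at 0.351 and 0.411. The Gata1 means were 1.80 and 1.56 RPM, with IgG at 0.432 and 0.487. Ldb1 means were 1.54 and 1.44 RPM, with IgG at 0.441 and 0.456. With 1 tag per position the Ldb1 folds were 3.23 (3.06 to 3.42) and 3.03 (2.95 to 3.10), with overlapping intervals. Those of Tal1 and Gata1 still did not overlap. Tags were thus counted at places without a call, although the level was well under that of called antibodies. Only the distance to the solitary place was limited, so windows can share tags with another neighbour called for that antibody. Beside the place on chromosome 8 from 87591751 to 87591791, a neighbour without an Ldb1 call had 18.5 Ldb1 RPM. It lay at 1750 bp, next to an Ldb1 call at 1510 bp with 21.7 RPM. The part of such shared tags in the folds was not tested.

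The solitary place was the stronger of the pair in most cases. Of 651 solitary places with a neighbour over 1 kb away, the place exceeded its nearest such neighbour in Ldb1 level at 94.9%, in Tal1 at 93.2% and in Gata1 at 87.6%. Where the neighbour had a site of the same antibody, the shares were 86.7% for Ldb1 (209 of 241), 86.3% for Tal1 (245 of 284) and 79.3% for Gata1 (253 of 319). Selection on a call of all 3 favours the solitary place in this comparison.

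Strong solitary places had neighbours more often than weak ones. From the weakest to the strongest quartile, 41.7%, 43.8%, 54.7% and 67.9% had a partly called place within 20 kb, with intervals of 36.5 to 46.9 in the weakest and 62.8 to 72.7 in the strongest. Within 1 kb the shares were 8.61%, 8.03%, 13.3% and 31.9% in the same order. The 692 places with no neighbour had medians of 6.75 RPM for Ldb1, 7.63 for Tal1 and 3.94 for Gata1, against 13.0, 17.3 and 6.48 RPM at the 223 places with a neighbour within 1 kb and 7.85, 9.88 and 4.45 RPM at the 527 places whose neighbours were all farther. The rise was largest where the neighbour lay within 1 kb, so extra calls on the shoulders of a strong place and separate sites cannot be told apart there.

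The gap to clustered places in neighbours was present at every strength. With all 2249 places cut into quartiles of strength together, partly called neighbours were found from the weakest to the strongest quartile at 41.6%, 46.3%, 54.2% and 68.9% of solitary places, and at 64.2%, 68.9%, 69.5% and 80.5% of clustered places. In each quartile the intervals did not overlap, the closest being 63.6 to 74.0% for solitary and 74.9 to 85.3% for clustered places in the strongest. Clustered places lie by their definition where calls are dense.

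**Figure D5:**
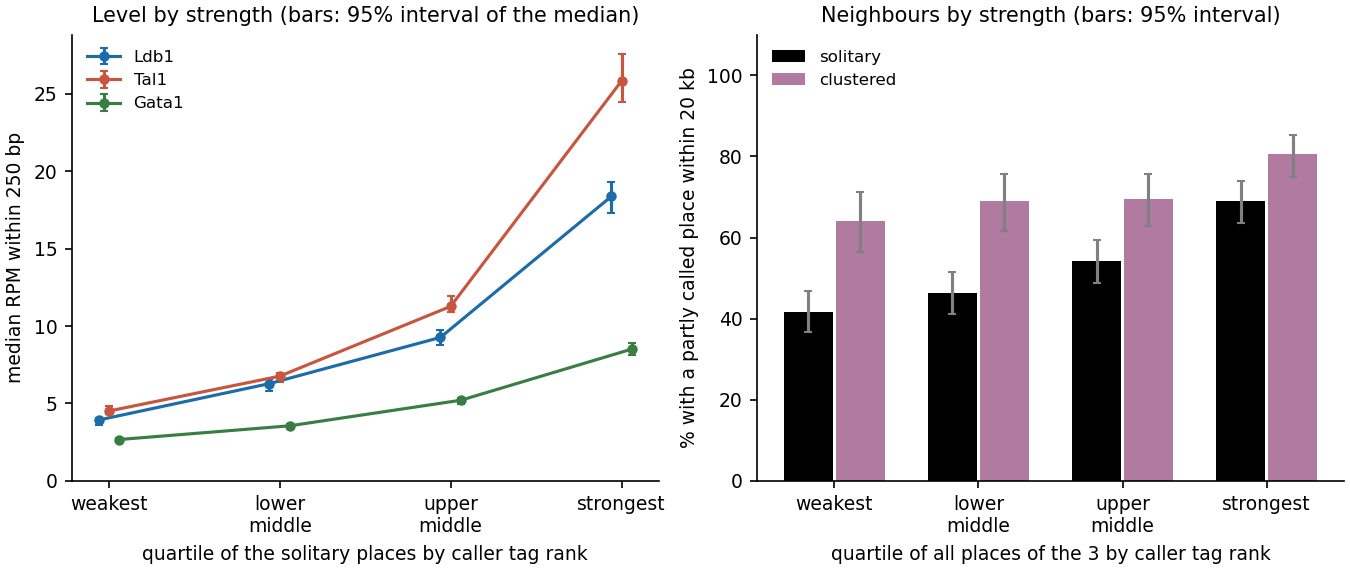
Left, median RPM within 250 bp of solitary places for each antibody, with the 95% interval of the median, by quartile of caller tag rank from weakest to strongest. Right, percent of solitary (black) and clustered (purple) places with a partly called place within 20 kb, with 95% intervals, by quartile of all places of the 3; in each quartile the solitary bar is the lower of the pair.

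The strongest single places had levels far above the medians, and several had all 3 centres at 1 position. The best by mean rank was on chromosome 8 from 87591751 to 87591791, where Ldb1 had 52.3 RPM, Tal1 89.99, Gata1 29.3 and IgG 0.403 (3 tags). All 3 caller centres were equal there. It had 3 partly called neighbours, at 295, 1510 and 1750 bp on the lower side. The one at 1510 bp was called for Ldb1 and Tal1, and had 21.7 Ldb1 RPM, 4.33 Tal1 RPM and 0.889 Gata1 RPM. Ldb1 there was strong without a comparable Gata1 level.

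The next was on chromosome 15 from 38488051 to 38488311, where Ldb1 reached 73.2 RPM, Tal1 137, Gata1 26.2 and IgG 1.21. Its Tal1 level was the highest of all members, and 34.6% of those Tal1 tags were distinct, the lowest share for Tal1. Its centres were spread, with Gata1 lowest, Tal1 80 bp and Ldb1 140 bp above it. The third was on chromosome 1 from 182687631 to 182687671, where Ldb1 reached 62.2 RPM, Tal1 70.05, Gata1 32.5 and IgG 1.34. It had equal centres and the highest Gata1 level of all members.

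Others of the 8 best-ranked lay far from any other call. On chromosome 6 from 60757751 to 60757791, with equal centres, Ldb1 had 47.4 RPM, Tal1 51.8, Gata1 19.8 and IgG 0.403, and the nearest place of any kind was 103 kb away. On chromosome 1 from 99491491 to 99491551, Ldb1 had 27.2 RPM, Tal1 56.9, Gata1 20.3 and IgG 0.672, with the nearest place of any kind 1994 kb away and the nearest of all 3 at 6121 kb. Levels several times the member medians were thus reached at a place with no other call for over 1 Mb.

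The remaining best-ranked places had partly called neighbours. On chromosome 6 from 136821931 to 136822351, Ldb1 had 41.1 RPM, Tal1 58.6 and Gata1 17.4, with no IgG tag, which makes them at least 102, 145 and 43.1 times IgG when IgG is set to 3 tags. On chromosome 7 from 45392951 to 45393271, Ldb1 had 42.6 RPM, Tal1 83.6, Gata1 19.2 and IgG 0.134, with 4 neighbours. On chromosome 2 from 84536391 to 84536871, Ldb1 had 38.2 RPM, Tal1 62.8, Gata1 14.7 and IgG 0.941, also with 4 neighbours. Tal1 was the highest of the 3 antibodies and Gata1 the lowest at each of the 8.

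The widest places were of mixed strength. On chromosome 8 from 35200871 to 35201531 the centres spanned 350 bp, with Tal1 lowest, Ldb1 170 bp and Gata1 350 bp above it, and Ldb1 had 7.22 RPM, Tal1 10.9, Gata1 4.57 and IgG 1.08. On chromosome 10 from 60808331 to 60808791 the span was 260 bp, and Ldb1 had 4.08 RPM, Tal1 8.50 and Gata1 2.92, with no IgG tag. On chromosome 16 from 58612411 to 58612991 the span was 240 bp, and Ldb1 had 37.5 RPM, Tal1 47.3, Gata1 22.4 and IgG 0.538. Chaining joins such sites without showing that they form a single unit. The narrowest were the 42 places where all 3 centres were equal. Ties were broken by mean rank, so the 3 named were the best-ranked of these 42. They are the places with equal centres on chromosomes 8, 1 and 6 given above.

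The most remote places were weaker. On chromosome 13 from 120351411 to 120351551, with the nearest place of any kind 4140 kb away, Ldb1 had 5.18 RPM, Tal1 5.90, Gata1 4.70 and IgG none. On chromosome 4 from 29292891 to 29293131, 2999 kb from any other place, Ldb1 had 4.87 RPM, Tal1 1.91, Gata1 1.91 and IgG none. On chromosome 6 from 11677391 to 11677591, 2972 kb from any other, Ldb1 had 6.59 RPM, Tal1 18.9, Gata1 4.57 and IgG 0.269. Of these 9 antibody levels 3 exceeded the median over all members, namely Gata1 on chromosome 13 and Tal1 and Gata1 on chromosome 6.

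The places with the most partly called neighbours were not the strongest. On chromosome 19 from 5848171 to 5848231, with 9 neighbours, Ldb1 had 3.93 RPM, Tal1 6.07, Gata1 3.68 and IgG 0.403, all 3 antibodies below the member medians. Its neighbour 3700 bp on the lower side, called for Tal1 and Gata1, had 18.2 RPM for Tal1 and 10.9 for Gata1 but also 2.15 for IgG, so both antibodies and the control were higher at that neighbour. On chromosome 11 from 87566451 to 87566531, with 8 neighbours, Ldb1 had 14.3 RPM, Tal1 31.7, Gata1 4.70 and IgG 0.807. On chromosome 9 from 64590911 to 64591451, also with 8, Ldb1 had 12.9 RPM, Tal1 11.96, Gata1 6.73 and IgG 0.807.

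The most IgG tags at any member were 16, or 2.15 RPM, on chromosome 13 from 23747071 to 23747551. Ldb1 had 5.34 RPM there, Tal1 15.1 and Gata1 11.2, so that Ldb1 was 2.48 times IgG (interval 1.33 to 4.81), Tal1 7.01 times (4.08 to 12.8) and Gata1 5.20 times (3.03 to 9.49). Next came chromosome 19 from 10050271 to 10050531, with 14 IgG tags (1.88 RPM), 8.01 Ldb1 RPM, 11.96 Tal1 RPM and 9.02 Gata1 RPM. At both places the control took a far larger part of the level than at the typical member.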

How the data were processed

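The authors deposited aligned tags for each of the 4 libraries and, for each antibody, a list of binding sites on mm8. Per the file headers, sites were called with SISSRs 1.4 against the IgG library, keeping 1 tag per position, with a p setting of 0.001. In the deposited lists each site has a count of tags, a fold over background and a p-value from the caller. The tag counts ranked sites, and the p-values were not used further. The aligner is not given in the sources used here.

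Places, levels, positions and neighbours were computed in Python 3.11.15 (numpy 2.4.6, scipy 1.17.1, pandas 2.3.3), and figures were drawn in matplotlib 3.10.9. Shares carry exact Clopper-Pearson 95% intervals, medians exact order-statistic intervals, and ratios of summed tags exact conditional intervals. Scripts were tested on simulated data. The antibodies were compared by folds and shares, with no p, since each has 1 library.

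Members and the places named were chosen with earlier results of these data known. Named places were the 8 best by mean rank, the 3 widest and 3 narrowest, the 3 most remote, the 3 with most partly called neighbours, the 2 with most IgG tags, and the 3 on each side of the 20 kb limit. Where an antibody had several sites in a place, the site giving the closest set was used for positions. Chromosome X was kept out by the rule. Motifs were not searched, since no mm8 genome was used here.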

Additional observations from a re-analysis of the deposited data

Results flagged for a closer look

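Chromosome X lies outside the autosomal rule, and its places were used in none of the comparisons above. Its tags are part of the library totals behind RPM and the folds over IgG. It held 31 places of all 3 antibodies, of which 25 had no other within 20 kb. Levels at these 25 stood above the IgG library: Ldb1 was 27.3 times IgG (20.4 to 37.2), Tal1 37.0 times (27.8 to 50.5) and Gata1 14.6 times (10.9 to 19.985). The folds on the autosomes were 32.8, 42.2 and 16.9 in the same order. With 48 IgG tags over the 25 places, the intervals on chromosome X reach to or past the autosomal values. Chromosome Y and the mitochondrial genome held no place of all 3. Outliers within a group were not looked for, since each antibody has 1 library.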

How the results depend on the processing

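No paired analysis was possible because there was a single library for every antibody; for the same reason no replicate could be left out. The motif alternatives were not run, as no mm8 genome was used. Of 126 values recomputed for 29 results, 65 stayed within the interval (for counts, within 1.5 times) of the reported value and 61 moved. The IgG level at solitary over clustered places, 1.02 (0.966 to 1.08), crossed 1 with isolation of 50 kb (0.988) and 10 kb (0.971). The same ratio stayed below 1 for Ldb1, Tal1 and Gata1 under every alternative.

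The number of solitary places was 1047 to 1659 under all alternatives. Their share of places of all 3 was 68.5% with chaining at 100 bp, 73.8% and 49.5% with isolation of 10 and 50 kb, and 69.6% in the upper 50% of each list. The folds of Ldb1, Tal1 and Gata1 over IgG depended most on the window: 58.0, 75.4 and 27.9 within 100 bp, 18.8, 24.2 and 10.3 within 500 bp, and 26.6, 35.6 and 15.7 with 1 tag per position. The levels of Ldb1, Tal1 and Gata1 at solitary over clustered places were 0.871, 0.836 and 0.866 within 100 bp, 0.795, 0.779 and 0.821 within 500 bp, 0.886, 0.864 and 0.895 with isolation of 10 kb, and 0.860, 0.838 and 0.875 with isolation of 50 kb; Tal1 was 0.834 with 1 tag per position, and Ldb1 0.827 without the stack on chromosome 2. That last choice, the clustered places over 1 kb from another, the place centre as a mean over all sites, and the members with all 3 sites in the upper 50% were added after seeing the data.

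Ldb1 reached 2 times Gata1 at 29.9% of places and Tal1 did at 51.5% with 1 tag per position, and at 34.7% and 51.8% within 500 bp. At a fold of 3 the shares were 10.7% for Ldb1 over Gata1, 27.8% for Tal1 over Gata1 and 2.08% for Tal1 over Ldb1. By tag midpoints the middle share was 33.8% for Gata1 and 30.8% for Tal1, and the median distances were 14.0, 12.8 and 15.8 bp in place of 30 bp. In the upper 50% of each list Ldb1 was in the middle at 39.6%. Midpoint distances were 12 (Ldb1 to Tal1), 11.4 (Ldb1 to Gata1) and 12.8 bp (Tal1 to Gata1) within 150 bp, and 11.5 (Ldb1 to Tal1) and 13.0 bp (Tal1 to Gata1) with 1 tag per position. The share with a partly called neighbour was 45.1% beyond 1 kb, 46.9% with chaining at 500 bp and 30.7% in the upper 50% of each list. Uncalled Ldb1 at neighbours was 3.23 times IgG with 1 tag per position. Causes were not tested. Midpoints could be read at 913 of the 1442 places, those with at least 10 tags per strand and antibody.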
